A study of Mus musculus with 19 samples.

Results

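The uncoupling protein genes *Ucp1*, *Ucp2* and *Ucp3* were found by their symbols in the gene-name columns of 3 expression tables, 1 for 7 tissues, 1 for brown adipose tissue (BAT) and 1 for inguinal white adipose tissue (iWAT). They are 3 of the 55740 genes in these tables, and each of the 3 is present in all of them. The proteins are carriers of the mitochondrial inner membrane. UCP1 lets protons return to the matrix without ATP synthesis and so turns fatty acid oxidation into heat in brown and beige adipocytes, where noradrenaline acting through cyclic AMP raises its transcription. UCP2 is found in many tissues, including immune cells, and UCP3 mainly in skeletal muscle, heart and brown fat, and neither is established as a heat-producing protein.

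The study asked how Musclin, a peptide secreted by skeletal muscle and encoded by *Ostn*, acts on thermogenic fat. RNA from brain, heart, liver, small intestine, tibialis anterior muscle and white and brown adipose tissue of chow-fed C57BL/6J wild-type (WT) mice was sequenced, with 1 library per tissue, no treatment given and no age beyond the range of 2 to 8 months that covers the study's mice on this diet. iWAT and BAT came from male, chow-fed MCK-Musclin and WT control mice after 1 week at 8 °C, with 3 mice per genotype and depot, so all 12 of these libraries are from cold-exposed animals. Both depots were taken at an age of 5 months. MCK-Musclin mice carry a Musclin coding sequence under the promoter of muscle creatine kinase (MCK), which drives it in skeletal muscle, and several founder lines were backcrossed to C57BL/6J. Which founder line was sequenced is not stated, and any effect on fat in this model comes from an animal exposed to the transgene throughout life.

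Levels are FPKM, fragment counts scaled for exon length and library total, on which levels of different genes can be set side by side. The 3 tables were normalized separately, so levels are compared within a table. FPKM gives no read counts. From the spacing of the smallest values, the sequencing depth of the tissue libraries was estimated at between 0.917 (small intestine) and 1.05 (brown adipose tissue) times that of heart, and that of the BAT libraries at between 0.889 (MCK-Musclin 1) and 1.11 (WT 2) times that of WT 1. Each estimate is the most frequent ratio within a fixed range around equal depth. It rests on 10 to 19 genes for a tissue library and on 38 to 49 for a BAT library. The iWAT table lists 13756 genes with too few low values for such an estimate, so its depth is unknown.

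*Ucp2* and *Ucp3* are neighbours. In GRCm38, *Ucp3* (ENSMUSG00000032942) occupies chr7:100472990-100486432 and *Ucp2* (ENSMUSG00000033685) chr7:100493337-100502020, both on the plus strand with 6904 bases between them. *Ucp1* (ENSMUSG00000031710) lies apart, at chr8:83290352-83298452 on the plus strand, between *Tbc1d9* and *Elmod2*. The coding sequences follow the same pattern: those of *Ucp2* and *Ucp3* are identical at 75.5% of 918 aligned bases, against 62.3% of 916 for *Ucp1* and *Ucp2* and 63.4% of 920 for *Ucp1* and *Ucp3*. Their lengths are close, with 307 codons in *Ucp1*, 309 in *Ucp2* and 308 in *Ucp3*. The longest stretch of exact identity between transcripts of different members was 24 bases, for *Ucp2* and *Ucp3*. Exons of *Ucp2* overlap those of *Dnajb13*, and the reads were counted without strand. *Dnajb13* itself was listed at no more than 4.29 FPKM in any iWAT library, 0.566 in any BAT library and 3.34 in any of the 7 tissues. No other annotated exon overlaps *Ucp1* or *Ucp3*.

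The 250 bases before each start are shown because the members differ in where they are expressed and because cold acts on *Ucp1* largely through its transcription. The sequences are from RefSeq with GRCm38.p6, 5′ to 3′ on the plus strand, with *Ucp1* at chr8:83290098-83290347, *Ucp2* at chr7:100493108-100493357 and *Ucp3* at chr7:100472741-100472990. Capitals mark TATATA (a form of the TATA box), the core of cyclic AMP response elements (TGACG on either strand) and the core of nuclear receptor elements (AGGTCA on either strand).
Ucp1: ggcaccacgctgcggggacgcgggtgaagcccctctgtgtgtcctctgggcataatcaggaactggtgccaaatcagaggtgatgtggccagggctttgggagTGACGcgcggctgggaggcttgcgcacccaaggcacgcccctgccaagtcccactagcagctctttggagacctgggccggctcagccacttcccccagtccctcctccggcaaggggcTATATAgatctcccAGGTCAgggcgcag
Ucp2: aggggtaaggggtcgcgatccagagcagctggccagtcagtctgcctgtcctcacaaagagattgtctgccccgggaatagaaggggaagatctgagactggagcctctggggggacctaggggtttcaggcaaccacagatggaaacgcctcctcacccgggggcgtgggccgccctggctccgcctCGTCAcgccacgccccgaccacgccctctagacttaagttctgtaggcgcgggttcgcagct
Ucp3: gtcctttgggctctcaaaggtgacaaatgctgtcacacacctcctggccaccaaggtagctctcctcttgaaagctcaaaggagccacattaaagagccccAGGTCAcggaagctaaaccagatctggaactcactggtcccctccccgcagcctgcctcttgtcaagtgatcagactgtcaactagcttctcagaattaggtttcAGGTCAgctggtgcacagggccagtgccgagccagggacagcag
Each motif was searched on both strands, and the shares given are those of 32817 windows of the same length before all annotated gene starts. TATATA, found in 5.3% of windows, lies 28 bases before the start of *Ucp1* and in neither of the other windows, and TATAAA (12.4%) and CCAAT (33.8%) are in none of the 3. TGACG (17.7%) occurs once in *Ucp1* and once in *Ucp2*, and AGGTCA (14.0%) once in *Ucp1*, 14 bases before the start, and at 149 and 44 bases before the start of *Ucp3*. GGGCGG (32.7%) is in the *Ucp2* window alone of the 3, and CANNTG (66.2%) is in those of *Ucp2* and *Ucp3*. The *Ucp2* window holds 16 CpG and that of *Ucp1* 12, against 3 for *Ucp3* and a median of 6 over all windows. The GC content was 64.8% for *Ucp1*, 63.6% for *Ucp2* and 54.8% for *Ucp3*, against a median of 52.4%. A match is a description of the letters and not a site, and a missing match says only that these letters are not in the window. The start used here for *Ucp2* lies inside the gene as annotated in the positions above.

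The labelled tissues were checked against their defining genes before the members were read. *Myh6* was highest in heart (14088 FPKM), *Myh4* in tibialis anterior (16821), *Snap25* in brain (4072), *Alb* in liver (22399), *Adipoq* in white adipose tissue (1699) and *Cidea* in brown adipose tissue (1638). In small intestine *Vil1* was at 443 and *Fabp2* at 988. *Myl7*, an atrial gene, was at only 3.52 in the heart library and at 3.54 in small intestine. These are bulk tissues, in which fewer cells of a type and less RNA per cell cannot be told apart.

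Among the 7 tissues, *Ucp1* was a brown fat gene. Its FPKM was 467 in brown adipose tissue, which placed it at rank 83 of all genes there, and 0.0355 in brain. It was listed at 0 in heart, tibialis anterior, liver, white adipose tissue and small intestine, so that brown adipose tissue held 99.99% of its sum over the 7 tissues. The white adipose library of these mice was otherwise adipose, with a sum of 15276 FPKM over 10 general adipocyte genes, while *Cidea*, a lipid droplet protein high in thermogenic adipocytes, was at 0.385.

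*Ucp2* was the broadly expressed member, with a peak outside fat and muscle. Its FPKM was 151 in small intestine, 44.4 in white adipose tissue, 19.3 in brown adipose tissue, 6.33 in brain, 5.97 in liver, 5.68 in heart and 1.54 in tibialis anterior. It was the only member detected in liver and small intestine and the most abundant of the 3 in white adipose tissue and brain. The first steps down this order were 3.41-fold from small intestine to white adipose tissue and 2.299-fold from there to brown adipose tissue. Brain, liver and heart stood within 1.06-fold and 1.05-fold of the next, and with 1 library each their order cannot be held against a spread.

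*Ucp3* was the member of striated muscle and brown fat. Its FPKM was 46.5 in tibialis anterior, 34.3 in brown adipose tissue, 28.4 in heart, 12.7 in white adipose tissue and 2.17 in brain, and it was listed at 0 in liver and small intestine. In tibialis anterior *Ucp3* made up 96.8% of the summed FPKM of the 3 genes and in heart 83.3%. In brown adipose tissue *Ucp1* made up 89.7%, *Ucp3* 6.60% and *Ucp2* 3.71%. Its order over the tissues is flatter at the top than that of *Ucp2*, with steps of 1.36-fold from tibialis anterior to brown adipose tissue and 1.21-fold from there to heart. The order of the 7 tissues was the same for each member after the libraries were rescaled to equal sums.

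**Figure D1:**
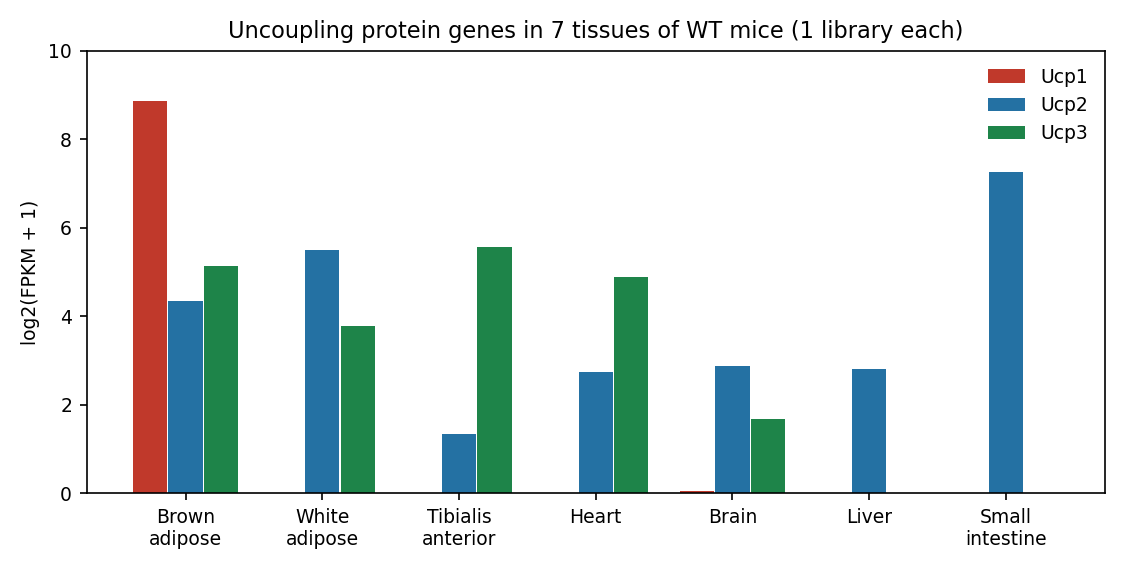
Levels of *Ucp1* (red), *Ucp2* (blue) and *Ucp3* (green) in 7 tissues of WT mice, as bars of log2(FPKM + 1) with 1 library per tissue and no error. *Ucp1* stands in brown adipose tissue (467 FPKM), *Ucp2* is highest in small intestine (151) and *Ucp3* in tibialis anterior (46.5).

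The fast skeletal muscle list, 12 genes, summed to 143860 FPKM in tibialis anterior, 577 in brown adipose tissue, 497 in heart, 396 in white adipose tissue and 125 in brain. These 5 tissues stand in the same order by *Ucp3*, though over a far narrower range, from 46.5 to 2.17 FPKM. *Tnnc2* was the most abundant gene of the list in tibialis anterior. The list sum was 0.401% of that of tibialis anterior in brown and 0.276% in white adipose tissue. That share of the tibialis anterior *Ucp3* level is 0.187 and 0.128 FPKM, where 34.3 and 12.7 were measured. The part of muscle RNA in the *Ucp3* level of the fat libraries was not tested.

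By a rule that takes the highest Pearson r of log2(FPKM + 1) over the 7 tissues, among 14691 genes whose mean FPKM reached 1, the genes most like each member were listed as a description without p. For *Ucp1* they were *Gm49124*, *Lncbate10*, *Otop1*, *Gm27671* and *9130214F15Rik* (r from 0.973 to 0.99998). *Otop1*, a proton channel gene of brown fat, was at 11.4 FPKM in brown adipose tissue and at 0.0929 or less in each of the other tissues. For *Ucp2* they were *Afdn*, *Arfip1*, *Cdca4*, *Chmp2b* and *Lratd2* (r from 0.988 to 0.999). For *Ucp3* they were *Gm44899*, *Pdpr*, *Pdhx*, *Mfn2* and *Gyg* (r from 0.955 to 0.982). *Pdpr* and *Pdhx* encode parts of the pyruvate dehydrogenase system, *Mfn2* a protein of mitochondrial fusion and *Gyg* glycogenin. With *Ucp1* near 0 in all but 1 tissue, its r values rest on the brown adipose library.

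In the cold-exposed fat depots the 3 genes divided the total differently. These libraries and the brown adipose library of the 7 tissues come from separately normalized tables, so the effect of cold on the level of *Ucp1* was not tested. In BAT of either genotype *Ucp1* made up between 97.9% and 98.4% of the summed FPKM of the 3 genes and ranked between 22 and 27 among all genes of a library. In iWAT of WT mice it made up 66.5%, 80.3% and 85.5%, with ranks of 424, 182 and 112. In iWAT of MCK-Musclin mice the shares were 69.5%, 31.5% and 3.45%, with ranks of 309, 2217 and 10050. In 2 of the 3 MCK-Musclin iWAT libraries *Ucp2* was thus the most abundant member, at 45.3% and 72.9% of the sum, while in the third library and in all 3 of WT it was *Ucp1*. The BAT libraries were strongly brown, with *Cidea* between 2829 and 3386 FPKM, and the iWAT libraries had *Adipoq* between 849 and 1099.

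**Figure D2:**
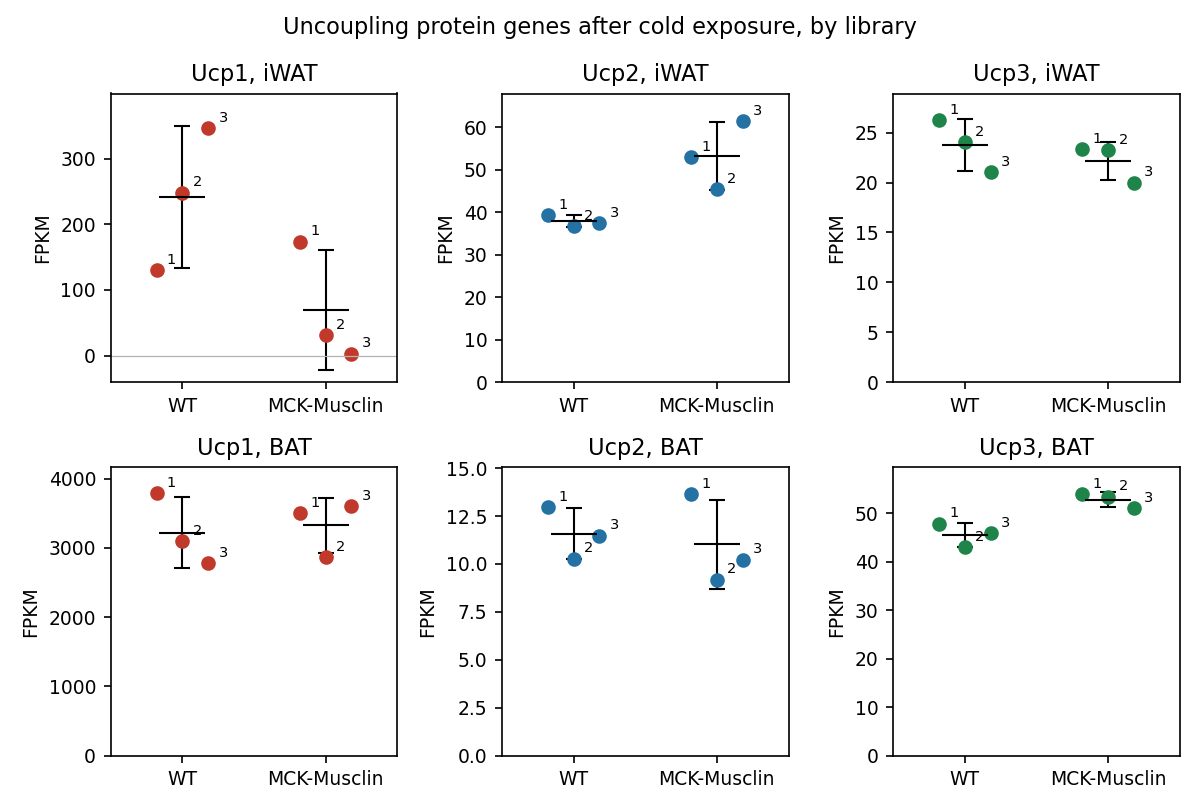
FPKM of *Ucp1*, *Ucp2* and *Ucp3* in each cold-exposed iWAT (upper) and BAT (lower) library, with points numbered by replicate and bars giving the mean ± SD of 3 mice. *Ucp2* in iWAT and *Ucp3* in BAT are separated between genotypes, and *Ucp1* in iWAT ranges from 2.91 to 173 in MCK-Musclin mice.

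The comparison of MCK-Musclin with WT mice asks how the muscle transgene relates to the thermogenic program of each depot. Each table was fitted with limma on log2(FPKM + 1), and a gene was also scored by the thresholds of the study, which it set on DESeq2 results and which are put here on the limma values. This cutoff asks for an unadjusted p under 0.05 and for a log2 change larger than 0.5 (iWAT) or 0.3 (BAT) in size. In iWAT limma found 0 of 12197 genes with an adjusted p under 0.05, 2012 (16.5%) with an unadjusted p under 0.05, and 725 (5.94%) at the cutoff, 110 of them lower (0.902%) and 615 higher (5.04%). The 110 lower became 213 without WT 1, 178 without MCK-Musclin 1, 201 after rescaling to equal sums (TPM), 184 with median-ratio scaling, 71 with a mean FPKM of at least 5 and 25 after centring each library on general adipocyte genes. Over all genes tested, the mean was lower in MCK-Musclin mice in 4715 and higher in 7482. A gene is called separated here where the ranges of the genotypes do not overlap, as in 2846 genes (23.3%). These were 663 with MCK-Musclin lower (5.44% of all genes) and 2183 with MCK-Musclin higher (17.9%). Of the 3 members 0 had an adjusted p under 0.05, 1 was at the cutoff (*Ucp1*, lower) and 1 was separated (*Ucp2*, higher).

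*Ucp1*, the heat-producing member, had the lowest values of the iWAT comparison in MCK-Musclin mice. WT libraries 1, 2 and 3 had 130.2, 248 and 346 FPKM of *Ucp1* (242 ± 108, SD, n = 3), and MCK-Musclin libraries 1, 2 and 3 had 173, 31.6 and 2.91 (69.3 ± 91.3, n = 3). MCK-Musclin libraries 2 and 3 lay below every WT library and MCK-Musclin library 1 above WT library 1, so the groups overlap. Within the MCK-Musclin group the highest value was 59.5 times the lowest. The log2 fold change was -2.998 (SE 1.21, 95% interval -5.85 to -0.15), with a limma unadjusted p = 0.0416 and adjusted p = 0.282, and the exact two-sided permutation p was 0.2, where 0.1 is the smallest that 3 against 3 can give. Single libraries decide whether *Ucp1* is at the cutoff. Without MCK-Musclin 1 the log2 fold change was -4.31 (unadjusted p = 0.00236), and without MCK-Musclin 3 it was -1.58 (unadjusted p = 0.0746). The call was also lost without WT 1 (unadjusted p = 0.0518), WT 2 (unadjusted p = 0.0939), WT 3 (unadjusted p = 0.108) or MCK-Musclin 2 (unadjusted p = 0.0731). Robust estimation (unadjusted p = 0.0961) and replicate number as a block (unadjusted p = 0.0510) lost it too.

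Genes that mark thermogenic adipocytes were described from a list of their own. The summed FPKM of the brown and beige fat list, which leaves out the members, was 513, 759 and 893 in WT iWAT and 542, 233 and 153 in MCK-Musclin iWAT. The order of the 6 libraries by this sum, to which *Cidea* adds the most, is the order by *Ucp1*, with MCK-Musclin 1 again above WT 1, though single genes differ from it. Of 16 listed genes tested, 13 had lower and 3 higher means in MCK-Musclin mice, 9 were at the cutoff, all lower, and the median log2 fold change was -0.71, against 0.06 over all genes tested. *Cidea* was at 290.5, 358 and 427 in WT and 294, 103 and 70.2 in MCK-Musclin libraries (log2 fold change -1.45, adjusted p = 0.213). *Fabp3*, a fatty acid binding protein of oxidative tissues, was at 18.4, 52.1 and 104 against 21.2, 6.83 and 2.14 (log2 fold change -2.54, adjusted p = 0.1998). *Kcnk3*, a potassium channel, was at 8.57, 8.80 and 10.5 against 7.095, 4.80 and 3.004 and is among the 3 listed genes that were separated, all lower in MCK-Musclin mice. The share of all genes separated with MCK-Musclin lower was 5.44%. The count of 9 became 2 without WT 3, 3 without MCK-Musclin 3, 4 without MCK-Musclin 2 and 12 without MCK-Musclin 1, alternatives chosen after seeing the data. The part of thermogenic adipocyte content in the *Ucp1* result was not tested.

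**Figure D3:**
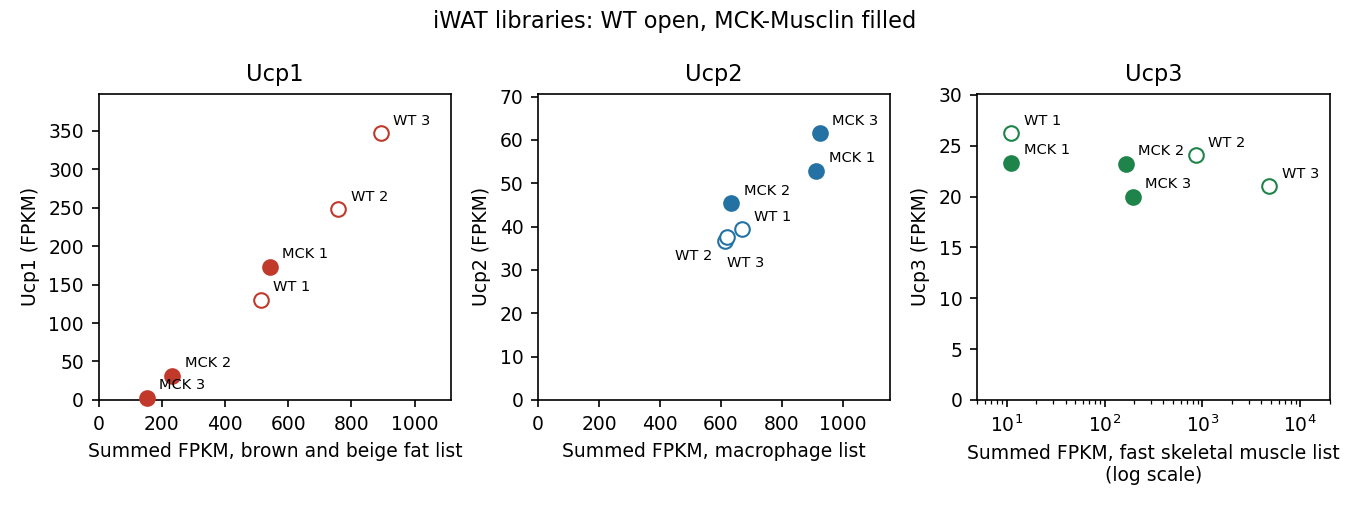
FPKM of *Ucp1*, *Ucp2* and *Ucp3* in the 6 iWAT libraries (vertical axes) against the summed FPKM of the brown and beige fat, macrophage and fast skeletal muscle lists (horizontal axes, the last on a log scale), with WT libraries open and MCK-Musclin libraries filled. *Ucp1* rises with its list from 2.91 to 346, while *Ucp3* lies between 19.99 and 26.2 over muscle sums from 11.2 to 4794.

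General adipocyte genes were nearer to level than the thermogenic ones. Their sum was 15689, 16728 and 16560 in WT and 14110, 14660 and 15854 in MCK-Musclin iWAT, with 10 of 10 means lower, 0 at the cutoff and a median log2 fold change of -0.15 (0.07 after centring on the list itself, with 4 lower and 6 higher). With TPM the median of this list was -0.20, and with median-ratio scaling it was -0.23 with 1 gene lower at the cutoff. Scaling matters for such small shifts: centring each library on this list moves the median of all genes to 0.28. Centred in this way *Ucp1* stayed at the cutoff (log2 fold change -2.78, adjusted p = 0.122, over all alternatives 0.122 to 0.479), and the brown and beige fat list had a median of -0.49 with 6 genes lower and 1 higher at the cutoff.

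The machinery upstream of *Ucp1* was described from a list of 28 receptors, signalling proteins, enzymes and transcriptional regulators. The list was not split into genes that raise and genes that lower *Ucp1* transcription. In iWAT 23 of 28 means were lower and 5 higher, 4 were at the cutoff, all lower, and the median was -0.18, but after centring on the adipocyte list 14 were lower and 14 higher with a median of 0.03 and 1 at the cutoff in each direction (*Pparg* is in both lists). With median-ratio scaling 27 were lower, 7 at the cutoff, and the median was -0.25, and with TPM 26 were lower, 6 at the cutoff, with a median of -0.24. The beta-adrenergic receptors, which receive the sympathetic signal, differed among themselves. *Adrb1* was at 4.37, 2.46 and 3.28 FPKM in WT and 1.10, 1.47 and 1.08 in MCK-Musclin libraries, and so separated (log2 fold change -0.96, SE 0.181, adjusted p = 0.143). *Adrb3*, the main adipocyte receptor in mice, was at 55.9, 93.6 and 66.9 against 59.3, 93.7 and 70.2 (log2 fold change 0.05, SE 0.227, adjusted p = 0.933), so its ranges are nearly the same. Downstream of the receptors, *Adcy3*, an adenylyl cyclase, was at 9.59, 17.0 and 20.7 against 11.8, 7.60 and 6.55 (log2 fold change -0.77, adjusted p = 0.266). *Prkar2b*, a regulatory subunit of protein kinase A, was at 259.6, 303 and 302 against 215, 199.9 and 217 (log2 fold change -0.45, adjusted p = 0.148). *Ppargc1a*, the coactivator PGC-1alpha, was at 7.16, 7.23 and 6.51 against 6.34, 2.96 and 2.01 (log2 fold change -0.84, adjusted p = 0.233). Of the 28 regulators 6 were separated with MCK-Musclin lower, *Adrb1*, *Prkar2b* and *Ppargc1a* among them, and 1 with MCK-Musclin higher (*Mapk14*). Over all genes 5.44% were separated with MCK-Musclin lower and 17.9% with MCK-Musclin higher. *Adrb1*, *Adcy3* and *Ppargc1a* were at the cutoff together with *Ppara*. The count of 4 at the cutoff became 2 without WT 2, WT 3, MCK-Musclin 2 or MCK-Musclin 3.

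Fatty acids are both the fuel and the activators of UCP1, and their supply and oxidation were described from 20 genes. In iWAT 19 means were lower and 1 higher, 6 were at the cutoff, all lower, and 10 were separated with MCK-Musclin lower, as were 663 of all genes (5.44%). The median log2 fold change was -0.30, and -0.09 after centring on the adipocyte list, with 14 lower and 6 higher and 1 instead of 6 at the cutoff, but *Fabp4*, *Lipe* and *Plin1* are in both lists. *Cpt1b*, which brings long-chain fatty acids to the matrix, was at 7.51, 10.7 and 15.3 in WT and 7.99, 3.34 and 1.10 in MCK-Musclin libraries, again with MCK-Musclin 1 among the WT values (log2 fold change -1.44, adjusted p = 0.228). *Hadhb*, a subunit of the mitochondrial trifunctional protein, was at 44.6, 46.1 and 53.9 against 39.5, 27.6 and 22.4, and so separated (log2 fold change -0.71, adjusted p = 0.173). *Pnpla2*, the lipase of the first step of lipolysis, was at 1111, 1214 and 1283 against 906, 1020.5 and 1023 (log2 fold change -0.29, adjusted p = 0.279), a smaller shift that was separated too. Without MCK-Musclin 3 the count of 6 became 1, and without WT 3 or MCK-Musclin 2 it became 2.

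Other carriers of the family and other routes of heat production were described from lists of their own. Of 9 related inner membrane carriers tested, 7 means were lower and 2 higher, with a median of -0.14 (0.07 after centring on the adipocyte list, with 0 at the cutoff). The 1 at the cutoff was *Slc25a20*, the carnitine and acylcarnitine carrier, at 63.6, 79.2 and 96.4 FPKM in WT and 66.5, 41.4 and 42.6 in MCK-Musclin libraries (log2 fold change -0.67, adjusted p = 0.211). *Slc25a20* fell out of the cutoff without WT 3, MCK-Musclin 2 or MCK-Musclin 3, when the list had 0. The ADP/ATP carriers *Slc25a4* and *Slc25a5*, which also conduct protons, had log2 fold changes of -0.22 and -0.14 (adjusted p = 0.484 and 0.582). Of 9 genes of creatine and calcium cycling tested, 0 were at the cutoff, 7 means were lower and the median was -0.17 (0.04 after centring). The largest log2 fold changes among them were those of *Atp2a1* (-2.38, SE 1.67, limma adjusted p = 0.515) and *Ckmt2* (-1.46, SE 0.765, limma adjusted p = 0.384). Both were highest in WT 3, at 138 and 10.1 FPKM. Both genes are also high in tibialis anterior, and the means of the fast muscle genes, *Atp2a1* among them, were lower too. The part of skeletal muscle RNA in these changes was not tested. Of 8 PPAR targets, 2 were at the cutoff lower (*Acaa2* and *Ehhadh*) and 1 higher (*Angptl4*), with a median of -0.32, and after centring 0 were at the cutoff lower and 1 higher, with a median of -0.11. With TPM or with median-ratio scaling 2 of these targets were at the cutoff lower and 0 higher. Of 10 general mitochondrial genes, 9 means were lower, 1 (*Cycs*) was at the cutoff and the median was -0.25 (-0.03 after centring, with 0 at the cutoff). In this list 5 genes were separated with MCK-Musclin lower, as were 5.44% of all genes. Without MCK-Musclin 1 this list had 2 at the cutoff, and without any other single library 0.

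*Ucp2* showed the opposite order of the genotypes in iWAT. The *Ucp2* level was 39.4, 36.7 and 37.5 in WT (37.9 ± 1.40, SD, n = 3) and 52.9, 45.4 and 61.5 in MCK-Musclin libraries (53.3 ± 8.06, n = 3), in FPKM. Every MCK-Musclin library was above every WT library, which held for 2183 of the 12197 genes (17.9%), and the spread was wider in MCK-Musclin mice. The log2 fold change was 0.47 (SE 0.123, 95% interval 0.18 to 0.76), a 1.39-fold difference on the fitted scale, with a limma unadjusted p = 0.00595 and adjusted p = 0.161, and the exact permutation p was 0.1, the smallest possible. *Ucp2* missed the cutoff of 0.5 and reached it without MCK-Musclin 2 (0.58) and after centring on the adipocyte list (0.69, adjusted p = 0.0369, against 0.0369 to 0.372 over all alternatives). No alternative turned its direction, and its log2 fold change ranged from 0.36 to 0.69.

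*Ucp2* is expressed in leukocytes, and the leukocyte lists also stood higher in MCK-Musclin iWAT. The summed FPKM of 10 macrophage genes was 668, 613 and 619 in WT and 912, 634 and 924 in MCK-Musclin libraries, with *Lyz2* the most abundant. *Ucp2* took the same order inside the MCK-Musclin group, lowest in library 2 and highest in library 3. In library 2 the macrophage sum lay inside the WT range, while *Ucp2* lay above it. Of the 10 macrophage genes 8 means were higher, 1 was at the cutoff (*Cd68*, 0.68, adjusted p = 0.250) and the median was 0.22. The sum of 8 B cell genes was 285, 167 and 146 in WT and 320, 425 and 411 in MCK-Musclin libraries, with *Cd79a* the most abundant. All 8 were at the cutoff and separated, with a median of 0.92, and the count at the cutoff was 5 without WT 3. The sum of 8 T cell genes was 134, 102 and 132 against 192, 188 and 198, with *Cd3g* the most abundant, 5 at the cutoff, 7 separated and a median of 0.61. Over all iWAT genes tested 5.04% were at the cutoff higher and 17.9% were separated with MCK-Musclin higher. After centring on the adipocyte list 3 macrophage, 8 B cell and 8 T cell genes were at the cutoff, all higher, of which 8 B cell and 6 T cell genes had an adjusted p under 0.05. No gene of the macrophage, B cell and T cell lists was at 0 in any iWAT library. Of 5 neutrophil genes tested 2 were at the cutoff (4 after centring), with a median of 0.66, and their sum was at most 20.9. Of 6 epithelial genes 1 passed the filter (*Epcam*, 0.48), and the list summed to at most 5.45. The part of these cell types in the *Ucp2* result was not tested. The white adipose library of the 7 tissues, whose label names no depot and no cold exposure, was normalized separately. It had *Ucp2* at 44.4 FPKM, the macrophage list at 672, the B cell list at 3.95 and the T cell list at 9.67. These levels are not compared with those of iWAT.

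*Ucp3* was level between the genotypes in iWAT within its spread. The *Ucp3* level was 26.2, 24.1 and 21.0 in WT (23.8 ± 2.61, SD, n = 3) and 23.3, 23.2 and 19.99 in MCK-Musclin libraries (22.2 ± 1.91, n = 3), in FPKM. The groups overlap, with the lowest value of both in an MCK-Musclin library and the highest in a WT library. The log2 fold change was -0.09 (SE 0.116, 95% interval -0.37 to 0.18), which leaves room for small differences in either direction, and became 0.12 after centring on the adipocyte list (limma adjusted p = 0.728 and 0.490). The exact permutation p was 0.4.

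Skeletal muscle transcripts varied widely among the iWAT libraries. The fast muscle list summed to 11.2, 854 and 4794 FPKM in WT and to 11.2, 164 and 195 in MCK-Musclin iWAT, with *Tnnc2* the most abundant and *Ckm* at 0 in WT 1 and MCK-Musclin 1. The part of skeletal muscle RNA in the *Ucp3* level was not tested. Of the 12 muscle genes 12 means were lower in MCK-Musclin iWAT with 0 at the cutoff, and 11 were at the cutoff without WT 1.

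In BAT the same fit was run on its own table. At the level of all genes limma found 1 of 10893 with an adjusted p under 0.05 (0.00918%), *Ostn* itself, and 436 (4.0%) at the cutoff, 234 lower (2.15%) and 202 higher (1.85%). The mean was lower in MCK-Musclin mice in 5693 genes and higher in 5200. In 1090 genes (10%) the genotypes were separated, 613 with MCK-Musclin lower (5.63%) and 477 higher (4.38%). Of the 3 members 0 were at the cutoff, and *Ucp3* alone had an unadjusted p under 0.05, as did 533 of all genes (4.89%), and was separated.

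*Ucp1* was very abundant in every BAT library of both genotypes. Its FPKM was 3792, 3095 and 2778 in WT (3222 ± 519, SD, n = 3) and 3500.2, 2864 and 3607 in MCK-Musclin libraries (3324 ± 402, n = 3). The groups overlap almost fully, and the 2 means differ by less than either SD. The log2 fold change was 0.05 (SE 0.138, 95% interval -0.27 to 0.37), limma adjusted p = 0.988 and exact permutation p = 0.9. Its sign turned without WT 3 (-0.05) and without MCK-Musclin 3 (-0.01).

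Regulators and thermogenic genes in BAT had few calls. Of 28 regulators 14 means were lower and 14 higher, 0 were at the cutoff and the median log2 fold change was 0.02, against -0.01 over all genes, and after centring on the adipocyte list 8 were lower and 20 higher, 1 of them at the cutoff, with a median of 0.15. Leaving out a library brought regulators to the cutoff in both directions, 3 lower without WT 1, 2 lower and 1 higher without WT 3, 2 higher without MCK-Musclin 1, and 1 higher without WT 2 or MCK-Musclin 2. Of 17 brown and beige fat genes tested, 11 means were lower, 6 higher and 1 was at the cutoff, with a median of -0.05 (0.09 after centring on the adipocyte list, with 3 lower, 14 higher and 1 higher at the cutoff). The gene at the cutoff was *Cox8b*, a subunit of cytochrome c oxidase, at 843, 836 and 885 FPKM in WT and 571, 689.9 and 768 in MCK-Musclin libraries (log2 fold change -0.35, adjusted p = 0.968), and without MCK-Musclin 1 there was none, while 1 was higher without MCK-Musclin 2. Over all BAT genes tested 5.63% were separated with MCK-Musclin lower. Of 20 genes of fatty acid supply and oxidation 15 means were lower, 4 were separated, all lower, 0 were at the cutoff and the median was -0.07. After centring the median was 0.07, with 16 higher and 1 at the cutoff, and uncentred there was 1 higher at the cutoff without WT 1 or MCK-Musclin 2. Of 10 general adipocyte genes 9 means were lower, 2 were separated, both lower, and 1 was at the cutoff, *Dgat2*, an enzyme of triglyceride synthesis (log2 fold change -0.31, adjusted p = 0.968), with a list median of -0.07 (0.06 after centring, with 0 at the cutoff). The related carriers (8 tested, median -0.04, and 0.10 after centring), the PPAR targets (7 tested, -0.02 and 0.11) and the mitochondrial genes (10 tested, 0.04 and 0.17) had 0 at the cutoff, and 1 carrier was lower at the cutoff without WT 2.

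*Ucp2* was low in BAT. Its FPKM was 12.9, 10.3 and 11.5 in WT (11.6 ± 1.34, SD, n = 3) and 13.7, 9.18 and 10.2 in MCK-Musclin libraries (11.02 ± 2.34, n = 3), so the groups overlap. The log2 fold change was -0.08 (SE 0.158, 95% interval -0.45 to 0.29; limma adjusted p = 0.987; exact permutation p = 0.7), and it turned to 0.06 after centring on the adipocyte list. The highest value was in MCK-Musclin 1, which also had the highest macrophage sum, 134 FPKM against 57.6, 47.8 and 59.3 in WT and 47.1 and 52.3 in the other MCK-Musclin libraries. Of 8 macrophage genes tested 7 means were higher and 1 lower, 1 was at the cutoff (*Csf1r*, 0.61), the median was 0.17 and *Lyz2* was the most abundant, and their part in the *Ucp2* values was not tested. B cell transcripts summed to at most 0.976 FPKM and T cell transcripts to at most 1.98 in each BAT library, so these lists had 0 genes tested, as did the neutrophil and epithelial lists. *Krt5*, *Krt8*, *Krt14* and *Epcam* were at 0 in all 6.

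*Ucp3* was the member whose BAT libraries were separated by genotype. Its FPKM was 47.9, 43.0 and 46.0 in WT (45.6 ± 2.48, SD, n = 3) and 54.0, 53.4 and 51.1 in MCK-Musclin libraries (52.8 ± 1.55, n = 3). Every MCK-Musclin library was above every WT library, as in the 477 genes counted above. The log2 fold change was 0.21 (SE 0.0834, 95% interval 0.01 to 0.40), a 1.16-fold difference on the fitted scale, with a limma unadjusted p = 0.0384 and adjusted p = 0.968, and the exact permutation p was 0.1. Its unadjusted p was above 0.05 with replicate number as a block (unadjusted p = 0.0646) and without WT 2 (unadjusted p = 0.126), WT 3 (unadjusted p = 0.0760), MCK-Musclin 1 (unadjusted p = 0.0825) or MCK-Musclin 2 (unadjusted p = 0.0879). Its size stayed under the cutoff of 0.3 in all alternatives except centring on the adipocyte list, where it was 0.34 and *Ucp3* was at the cutoff (unadjusted p = 0.0337). The fast muscle list was higher in MCK-Musclin BAT too, at 597, 838 and 529 FPKM in WT and 1925, 874 and 1262 in MCK-Musclin libraries, with 12 of 12 means higher, 10 at the cutoff (5 without WT 1) and a median of 0.87. *Tnnc2* was the most abundant of the list and no listed gene was at 0 in any BAT library. The part of skeletal muscle RNA in the *Ucp3* result was not tested. Of 8 genes of creatine and calcium cycling tested in BAT, 3 were at the cutoff, all higher (*Ckmt2*, *Atp2a1* and *Ryr1*), with a median of 0.14.

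The transgene itself could be read in part. *Ostn* was at 0 in every WT BAT library and at 37.9, 31.6 and 30.3 FPKM in the MCK-Musclin ones (limma log2 fold change 5.09, adjusted p = 3.83e-06). In iWAT it was at 0, 0 and 0.225 in WT and at 0, 5.17 and 4.21 in MCK-Musclin libraries. MCK-Musclin 1, the iWAT library with the WT-like *Ucp1*, is the one at 0, and its muscle list sum was 11.2. Whether *Ostn* in the fat libraries follows muscle RNA was not tested, and the label of this library was not checked by *Ostn*. Values of this library lay on both sides: *Adrb1* at 1.10, *Ucp2* at 52.9 and the T cell sum at 192 were outside the WT range with its group, while the brown and beige fat sum at 542, *Cidea* at 294, *Fabp3* at 21.2 and *Cpt1b* at 7.99 were inside the WT range. By qPCR and western blotting, the study reported lower mRNA and protein of metabolic and thermogenic genes in MCK-Musclin iWAT. Those are group results and not a check of this library. Whether the genotype of this library plays a part in the *Ucp1* result was not tested.

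The genotype effects in the depots were set against each other in a single limma fit of the 12 libraries and 11645 genes. The fit took the libraries as independent, and the labels do not say whether iWAT and BAT came from the same mice. It also took a common variance for both depots. For *Ucp1* in MCK-Musclin mice the SD was 132% of the mean in iWAT and 12.1% in BAT. The effect on *Ucp1* was more negative in iWAT than in BAT by -3.05 (SE 1.37, 95% interval -6.04 to -0.06, unadjusted p = 0.0463, adjusted p = 0.417). For *Ucp2* the difference was 0.55 (SE 0.207, 95% interval 0.10 to 1.00, unadjusted p = 0.0216, adjusted p = 0.348). For *Ucp3* it was -0.30 (SE 0.140, 95% interval -0.61 to 0.00, unadjusted p = 0.0519, adjusted p = 0.429). No member passed the adjusted threshold for a difference between depots, where 1 of 11645 genes did (0.00859%) and 1371 (11.8%) had an unadjusted p under 0.05. The signs of the 3 differences were the same in all alternatives run.

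Within each depot the genes most like a member over its 6 libraries were named by the same rule, again as a description over libraries that share tissue and genotype. In iWAT, among 12196 genes, they were *Sucla2*, *Nrg4*, *Cpt1b*, *Cox7a1* and *Vldlr* for *Ucp1* (r from 0.983 to 0.999). *Sucla2*, a subunit of succinyl-CoA synthetase, was at 205, 241 and 261 FPKM in WT and 224, 150.2 and 95.9 in MCK-Musclin libraries, the library order of *Ucp1* over a narrower range. *Nrg4*, a secreted factor of thermogenic fat, was at 88.9, 91.1 and 95.4 against 86.7, 73.2 and 61.7. For *Ucp2* in iWAT they were *Slc37a2*, *Ttyh3*, *Pak1*, *Gstp3* and *Eef2kmt* (r from 0.989 to 0.995), and *Slc37a2* was at 1.90, 1.76 and 1.72 against 2.92, 2.31 and 3.87. For *Ucp3* in iWAT they were *Fam45a*, *Dip2a*, *Polr2l*, *Pakap* and *Ptrhd1* (r from 0.976 to 0.987). In BAT, among 10892 genes, they were *Gm5641*, *Stard5*, *Cct2*, *Mrps5* and *Ldha* for *Ucp1* (r from 0.973 to 0.996), *Mlkl*, *Cd52*, *Gm15772*, *Gins4* and *Wdr73* for *Ucp2* (0.967 to 0.973), and *Rpl27-ps3*, *Zfp950*, *Ppp1cb*, *Gm9816* and *Rala* for *Ucp3* (0.979 to 0.990). *Cd52* encodes a surface protein of leukocytes. The genes named for a member in iWAT and in BAT share no name.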

How the data were processed

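RNA was sequenced from 7 tissues (1 library each) and from cold-exposed iWAT and BAT (3 MCK-Musclin and 3 WT libraries each). The authors filtered reads (fastp, Bowtie2), aligned them to GRCm38 with HISAT2 2.1.0 without strand, and deposited FPKM per gene and library. The processing notes name Cuffdiff and the study's methods StringTie. The iWAT table also holds the authors' log2 fold change, p, FDR and group means, which were not used. Repeated identical lines of a gene (287 of them) were dropped.

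Genes whose mean FPKM over a table's 6 libraries reached 1 were fitted on log2(FPKM + 1) with limma 3.58.1 (trend) in R 4.3.3 and p adjusted by Benjamini-Hochberg over all of them. The steps were tested on simulated data. Single values had exact two-sided permutation tests (scipy 1.17.1, Python 3.11.15, pandas 2.3.3, numpy 2.4.6), figures matplotlib 3.10.9, coding alignments biopython 1.88 on GENCODE M21. Promoter windows matched all 3 members. Members and lists were chosen with earlier results of these data known. Named genes are the members, *Ostn*, genes of 15 fixed lists and the 5 genes most like each member. *Dnajb13* was added for its overlap. Alternatives were pseudocount 0.1, no filter, a mean of at least 5, rescaling to TPM, median-ratio scaling, centring on the general adipocyte list, robust estimation, a replicate block and leaving out each library.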

Additional observations from a re-analysis of the deposited data

How the results depend on the processing

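Under the alternatives other than leaving out a library, 69 of 72 fitted values of the members and the order of the tissues kept their direction and their side of 0.05 by adjusted p. Centring on the general adipocyte list gave the others: *Ucp2* in iWAT 0.69 (adjusted p = 0.0369), *Ucp3* in iWAT 0.12 and *Ucp2* in BAT 0.058. It moved the median of all genes to 0.28 in iWAT and 0.13 in BAT, from 0.06 and -0.01, and the iWAT counts to 1515 with an adjusted p under 0.05 and 1982 at the cutoff, 98.7% of them higher (84.8% before). In BAT 89.7% were then higher (46.3% before), and median-ratio scaling gave 70.0% in iWAT. A mean FPKM of at least 5, with fewer genes tested, gave 216 at the cutoff in BAT. The 1 gene that differed between depots became 0 with pseudocount 0.1, that minimum, the centring or the block. Leaving out single libraries, each time assuming that the remaining pair varies like the rest, gave -0.051 to 0.17 for *Ucp1* in BAT, -0.23 to 0.034 for *Ucp2* in BAT (0.00094 without WT 1), and counts with an adjusted p under 0.05 of 0 to 86 in iWAT (86 without WT 1), 1 to 4 in BAT and 0 to 80 for the depot difference (80 without iWAT WT 1). The causes were not tested. The labels do not say that replicate numbers pair mice, so the block is an alternative only. With 3 mice a group the exact test cannot go below 0.1, FPKM holds no counts, the depth in iWAT is unknown, and each of the 7 tissues is 1 library.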
